A study of Homo sapiens with 10 samples.

Results

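The transcriptional response to R5020, a synthetic progestin, was examined in iWT cells, a clonal line of T47D human breast cancer cells in which wild-type (WT) progesterone receptor B was made inducible. The comparison is 1 array against 1 array, iWT cells given the inducer AP21967 and R5020 against iWT cells given AP21967 and the ethanol vehicle. The other 2 iWT arrays, without AP21967 and with vehicle or R5020, served as the estimate of noise. These 4 arrays are part of a series of 10 Affymetrix human gene expression arrays, 1 per condition, that also covers the line iKR, whose receptor cannot carry the small protein modifier SUMO (4 arrays), and the empty vector line iEV (2 arrays). All lines came from T47D-Y, a T47D derivative that lacks endogenous receptor. AP21967 is a small molecule that joins the parts of an artificial transcription factor, which then drives the integrated receptor gene. It was given for 2 days at 1 nM per the study's methods, and R5020 followed for 6 h at 10 nM. All cells, controls included, were serum starved before R5020, so the vehicle arrays also describe starved cells.

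The progesterone receptor is a nuclear receptor. Bound by progestin it acts as a dimer, binds progesterone response elements that are mostly enhancers far from promoters, and recruits coactivators or corepressors. Many of its targets are shared with the glucocorticoid receptor, which recognises the same DNA sequence. In breast epithelium progestins are known for a burst of cell cycle entry, for paracrine signals to neighbouring cells and for effects on luminal cell identity.

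Receptor mRNA was present in iWT cells with or without inducer. PGR, the gene of the receptor, had a log2 signal (from Robust Multi-array Average, RMA) of 6.25 and 6.17 on the iEV arrays. In iWT it read 11.12 with vehicle and 11.77 with R5020 without AP21967, and 11.34 and 11.89 with it. AP21967 alone therefore moved the PGR signal by 0.22 (log2), less than R5020 did in either state. The arrays without AP21967 are thus not receptor-free by mRNA, and the array gives no protein level. Luminal epithelial markers were in keeping with the labelled cell type, as 10 of 10 were at log2 8 or more on all 4 iWT arrays, with KRT18, KRT8 and KRT19 the highest. At that level on all 4 were also 1 of 7 fibroblast markers (COL1A1, 9.59 to 9.77) and 1 of 5 endothelial markers (TEK, 8.04 to 8.40), and none of 5 basal or 5 leukocyte markers.

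R5020 with inducer separated the array from the other 3. Of 10911 genes compared, 56 (0.513%) were 2.0 fold or more higher and 11 (0.101%) 2.0 fold or more lower with R5020. All 67 were also clear of noise as it was defined here, so that the same shares applied (0.513% and 0.101%). Clear means that the AP21967 and R5020 array lay beyond all 3 other iWT arrays and that the difference was larger than that without AP21967. A gene past 2.0 fold lies beyond the AP21967 vehicle array by selection, so this is a weak check. ZBTB16 and ZNF652 count as clear though they differed by 1.29 and 1.39 without AP21967. Without AP21967, R5020 moved 3 genes (0.0275%) 2.0 fold or more higher, namely SLC26A3, ZBTB16 and ZNF652, and 0 genes (0.0%) lower. At 1.5 fold the counts with inducer were 174 higher (1.59%) and 111 lower (1.02%), of which 172 (1.58%) and 111 (1.02%) were clear of the other arrays. Without inducer they were 10 (0.0917%) and 2 (0.0183%). The SD of the difference over genes was 0.254 (log2) with inducer and 0.125 without, beside 0.120 for AP21967 alone in iWT and 0.113 for AP21967 alone in iEV.

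A moderated test was also run. limma, with a spread taken from 3 pairs of arrays treated as replicates, called 352 genes higher (3.23%) and 360 lower (3.3%) at a Benjamini-Hochberg adjusted p under 0.05. It rests on the assumption that the 2 arrays compared vary as those pairs do, and the SE given below comes from it. Among the genes past 2.0 fold it called 54 of 56 higher and 11 of 11 lower. The exceptions were ZBTB16 and ZNF652, which already differed without inducer. Of the genes past 1.5 fold it called 161 of 174 and 101 of 111. Both groups were picked by the same difference that limma tests, so these counts are no independent check. They include RASGRP1, PDK4 and G6PC1, which in iWT reached log2 6 only on the array with R5020 and inducer. After cyclic loess, a normalization that removes trends along signal level, the limma counts were 421 higher and 253 lower. They were 218 and 147 when the iEV pair was left out of the spread, and 166 and 88 with the spread of the iWT pair alone.

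**Figure D1:**
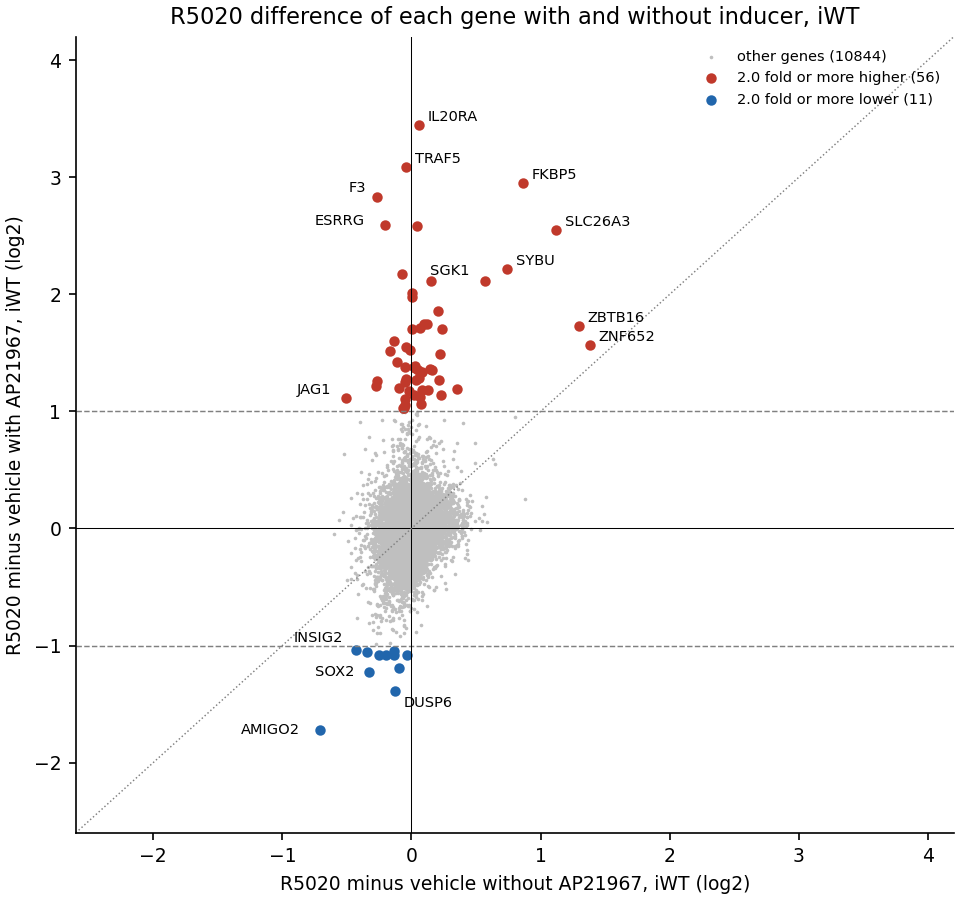
Log2 difference between R5020 and vehicle with AP21967 (vertical axis) against the same difference without AP21967 (horizontal axis) for 10911 genes in iWT, 1 array per condition. Dashed lines mark 2.0 fold and the dotted line marks equal differences. The 56 genes past 2.0 fold higher (red) and 11 lower (blue) lie mostly near 0 on the horizontal axis, and SLC26A3, ZBTB16 and ZNF652 lie beyond 1 on it.

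The largest increase was in IL20RA, a receptor subunit for cytokines of the interleukin-20 family. Its log2 signal was 7.12 with vehicle and 7.18 with R5020 without AP21967, and 6.95 with vehicle and 10.39 with R5020 in its presence. Values of 4 arrays are given in this order throughout. The first 3 arrays lay close together and the R5020 array with inducer stood 3.22 above the nearest of them. The difference was 3.45 (SE 0.201, limma adjusted p = 0.00016), or 10.9 fold.

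TRAF5, an adaptor protein of tumour necrosis factor receptors, came second. It read 6.22, 6.18, 6.34 and 9.42, a difference of 3.08 (SE 0.0962, limma adjusted p = 1.8e-05). F3, tissue factor, which starts blood coagulation, read 7.78, 7.51, 7.74 and 10.57 and rose by 2.83. In both genes the other 3 arrays were close together. ESRRG, an orphan receptor related to the estrogen receptors, read 6.80, 6.60, 6.76 and 9.35. Its difference was 2.59, and another ESRRG probe set gave 3.55, but both are sets open to cross-hybridisation (_x_at or _s_at). ADGRA2, an adhesion G protein-coupled receptor, read 7.88, 7.93, 7.87 and 10.45, a difference of 2.58 with 1.99 for another probe set. These genes had differences without inducer between -0.26 and 0.06.

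A few strongly induced genes also answered R5020 without the inducer. FKBP5, a co-chaperone of steroid receptors and a classical target of the progesterone and glucocorticoid receptors, read 8.24, 9.11, 7.81 and 10.76. It rose by 2.95 with inducer (SE 0.441, limma adjusted p = 0.011) and differed by 0.87 without. SLC26A3, an intestinal chloride and bicarbonate exchanger, read 5.00, 6.12, 4.85 and 7.40. SYBU, which links vesicles to kinesin motors on microtubules, read 7.05, 7.79, 7.28 and 9.49. In these genes the R5020 array was the higher one in both inducer states, with the wider gap under AP21967. SGK1, a kinase that raises sodium transport, read 9.20, 9.77, 9.18 and 11.29 and rose by 2.11.

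ZBTB16 and ZNF652 stood apart from the rest. ZBTB16, a zinc finger repressor also known as PLZF, read 5.95, 7.24, 6.01 and 7.74. Its difference of 1.73 with inducer compares with 1.29 without, and limma did not call it (SE 0.474, adjusted p = 0.072). ZNF652, another zinc finger repressor, read 8.84, 10.22, 9.14 and 10.70. Here 88.3% of the difference with inducer was already present without it (1.39 of 1.57 on the log2 scale, limma adjusted p = 0.14). Over the 56 higher genes the share of the difference seen without inducer had a median of 1.88% and ran from -45.3% (JAG1) to 88.3% (ZNF652). Over the 11 lower genes the median was 18.1% with a range of 3.33% to 41.3%, and 11 of 11 had the same sign without inducer, against 35 of 56 of the higher genes. The share of all genes with the same sign in both inducer states was not counted, so these sign counts have no background. The PGR mRNA present without AP21967, given above, stands beside these values, and its part in them was not tested.

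**Figure D2:**
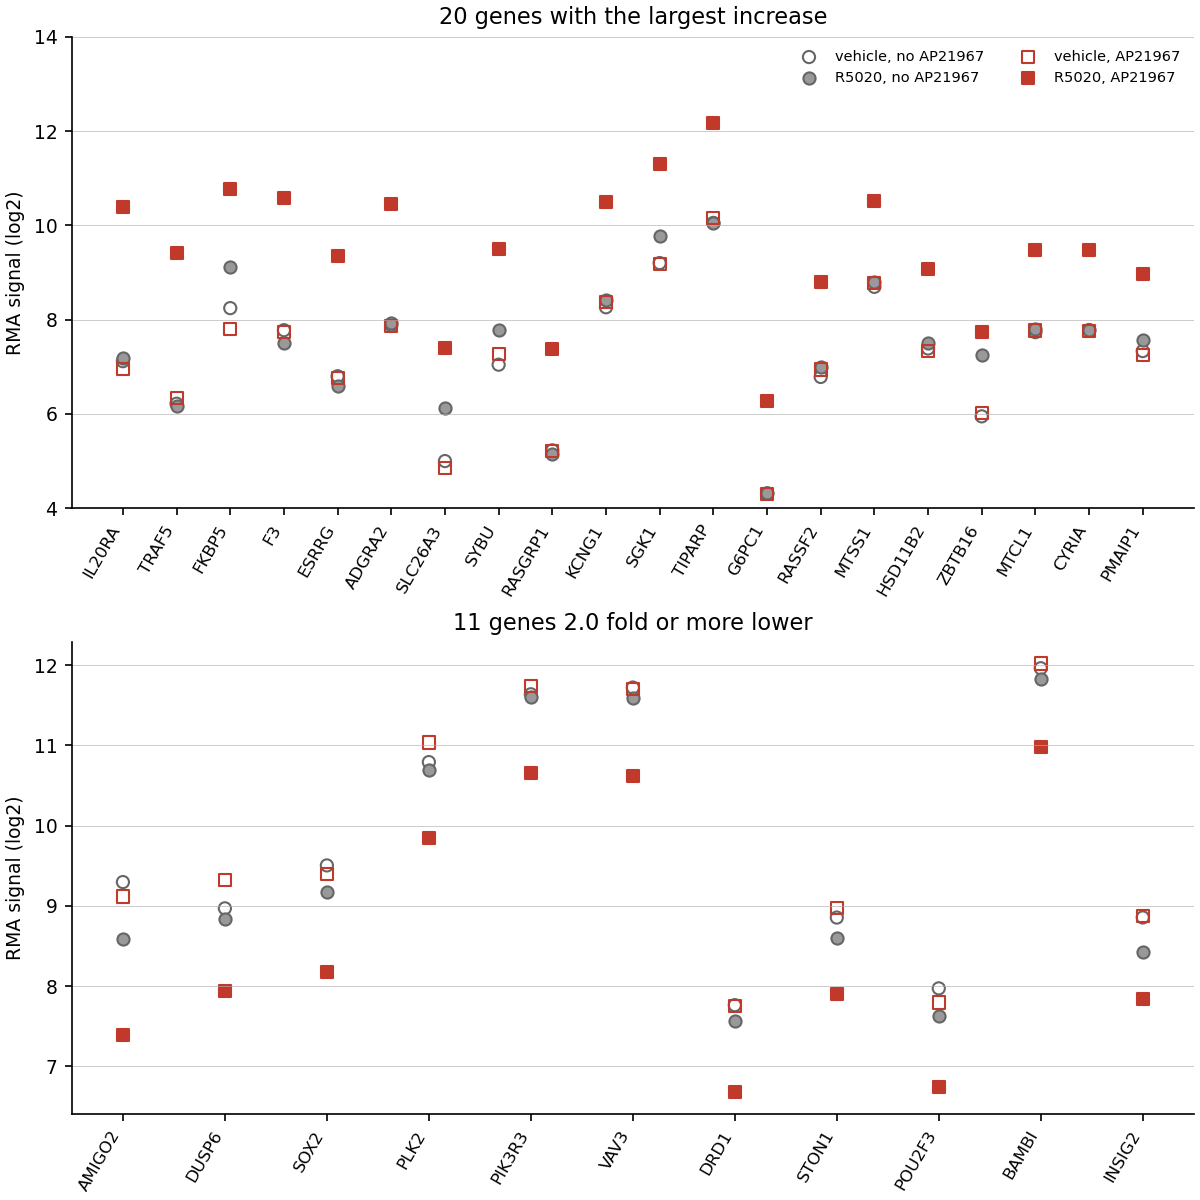
RMA log2 signal on each of the 4 iWT arrays for the 20 genes with the largest increase (top) and the 11 genes past 2.0 fold lower (bottom). Each symbol is 1 array, circles without AP21967 and squares with it, filled for R5020. The filled square lies beyond the other 3 symbols in every gene, in ZBTB16 by only 0.50 (log2). FKBP5, SLC26A3, SYBU, SGK1 and ZBTB16 also show a filled circle above the open symbols.

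Among genes of known progestin and glucocorticoid response, rises outnumbered falls. Of 33 such genes compared, 9 were past 2.0 fold higher, 13 were past 1.5 fold higher and none was past 1.5 fold lower, and limma called 16 higher and 0 lower. PDK4, whose test is not given as support below, is in each of these higher counts. Over all genes 1.59% were past 1.5 fold higher and 1.02% lower, and limma called 3.23% higher and 3.3% lower. These shares are the background for the counts of all lists below. Differences ran from -0.32 to 2.95, with 28 of 33 above 0. The median difference was 0.42 (log2), beside -0.02 over all genes. Besides FKBP5, SGK1 and ZBTB16 the group held TIPARP, a mono-ADP-ribosyltransferase, which read 10.05, 10.05, 10.15 and 12.17. HSD11B2, the enzyme that inactivates cortisol, read 7.39, 7.51, 7.33 and 9.08. RGS2, which shortens G protein signals, read 6.44, 6.39, 6.48 and 8.02. None of these 3 genes moved by more than 0.12 without inducer. PDK4, the kinase that shuts pyruvate dehydrogenase, read 5.89, 5.94, 5.83 and 7.11, a rise of 1.28. In iWT only the array with R5020 and inducer reached log2 6, so the PDK4 test is not given as support. The transcription factors CEBPD and KLF4 rose by 1.21 and 1.18. Smaller increases called by limma were those of DDIT4, an inhibitor of mTORC1, by 0.84, of NFKBIA, the NF-kB inhibitor, by 0.75, and of MYC by 0.62. GLUL, glutamine synthetase, differed by 0.68 but missed the limma threshold (adjusted p = 0.064). TSC22D3, the glucocorticoid-induced leucine zipper, rose by only 0.34 (limma adjusted p = 0.042), and DUSP1, a MAP kinase phosphatase of the same response, differed by -0.01.

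Among nuclear receptors, 2 of 33 genes were past 2.0 fold. ESRRG was described above, and VDR, the vitamin D receptor, read 9.95, 9.82, 9.95 and 11.55, a rise of 1.60 (SE 0.091, limma adjusted p = 0.00016). Other VDR probe sets gave 1.86, 0.93 and 0.32. Conversely ESR1, estrogen receptor alpha, read 10.80, 10.76, 10.75 and 10.14 and fell by 0.61 (limma adjusted p = 0.0069). The mean of its probe sets gave -0.09 (adjusted p = 0.47), so the fall was that of its brightest probe set. NR2F1 differed by -0.61 (limma adjusted p = 0.051). Coregulators of nuclear receptors (24 compared) had 0 genes past 1.5 fold, beside 1.59% higher and 1.02% lower over all genes. Of these coregulators limma called 1 lower, PNRC2 (-0.34), which was not called after cyclic loess (-0.25, adjusted p = 0.11). Of 19 steroid receptor chaperones FKBP5 was past 1.5 fold, and limma called it and PPID (0.35) higher.

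Among luminal lineage factors more genes fell than rose. Of 26 compared, limma called 10 lower and 1 higher, 6 were past 1.5 fold lower and 1 higher, and 3 differences were above 0. The median was -0.34, beside -0.02 over all genes. FOXA1, the pioneer factor that opens chromatin for ESR1, read 11.30, 11.16, 11.28 and 10.52. TFAP2C, an AP-2 factor of luminal cells, read 11.53, 11.47, 11.57 and 10.79 and fell by 0.78 (SE 0.0885, limma adjusted p = 0.0034). SPDEF, an ETS factor of secretory epithelium, read 11.78, 11.72, 11.74 and 11.07. In each of these the 3 other arrays lay close together and the R5020 array with inducer below them. TFAP2A fell by 0.67, MYB by 0.76, and ELF3, an epithelial ETS factor, by 0.56. ELF5, the milk secretory lineage factor, fell by 0.39 (limma adjusted p = 0.028, but 0.054 after cyclic loess), and GATA3 differed by -0.31 (limma adjusted p = 0.06). PRLR, the prolactin receptor, was the 1 gene of the list that rose, by 0.75 (limma adjusted p = 0.014), with 9.18, 9.36, 8.82 and 9.57 on the 4 arrays. Here the vehicle array with inducer was the lowest, and the R5020 array without inducer lay closer to the R5020 array with it than to that vehicle array. In bulk RNA, less of a transcript per cell and fewer cells that hold it cannot be told apart.

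These falls came with a shift along signal level that spanned the array. The median difference with inducer was 0.08 for genes with a mean of log2 6 to 7, 0.06 from 7 to 8 and -0.09 from 10 to 11, whereas after cyclic loess normalization it stayed between -0.01 and 0.02. Bright genes as a class therefore read slightly lower on the R5020 array with inducer, and the luminal list was bright, with a median level of log2 12.1 beside 8.84 for all genes. After cyclic loess the luminal median was -0.27, 3 were past 1.5 fold lower, and limma called 7 lower and 1 higher. The summed level of the 10 defining luminal markers was 16.93 (log2) on that array against 17.05 to 17.08 on the other 3. The dimmer lists moved the other way, with the 5 basal markers at 9.63 against 9.50 to 9.54 and the 5 leukocyte markers at 8.93 against 8.77 to 8.81. The part of these marker levels in the luminal result was not tested.

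**Figure D3:**
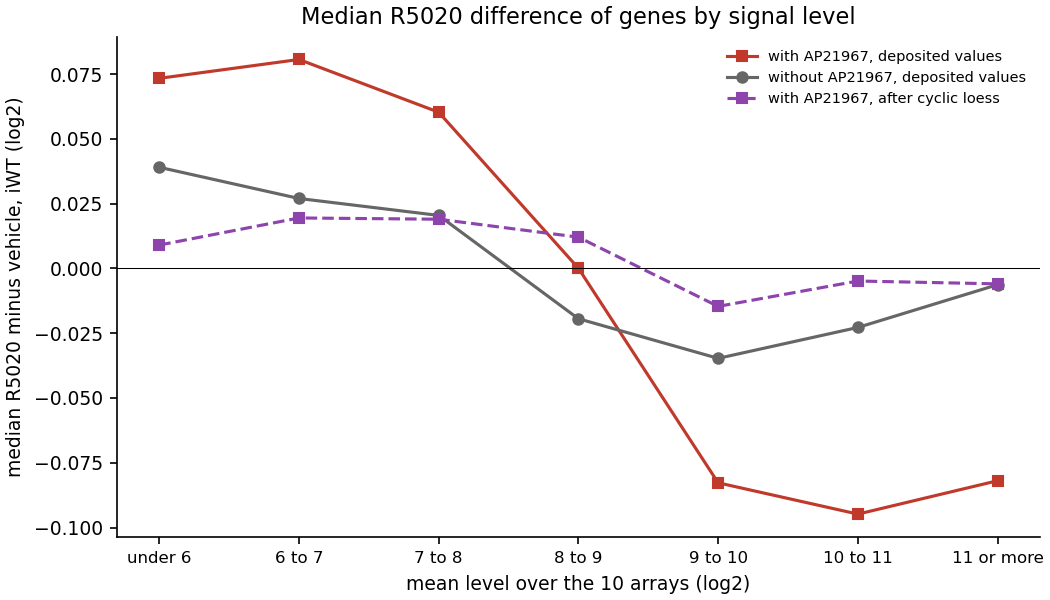
Median log2 difference between R5020 and vehicle in iWT for genes grouped by their mean log2 signal over 10 arrays. With AP21967 the deposited values (red) fall from 0.08 at log2 6 to 7 to -0.09 at 10 to 11, without AP21967 (grey) they stay between -0.03 and 0.04, and cyclic loess (purple) removes most of the trend.

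Among developmental transcription factors, too, falls outnumbered rises. Of 34 compared, 1 was past 1.5 fold higher and 7 lower, limma called 1 higher and 8 lower, and the median was -0.23, or -0.20 after cyclic loess. SOX2, a factor of stem and progenitor cells, read 9.50, 9.18, 9.40 and 8.17. It fell by 1.23 (SE 0.145, limma adjusted p = 0.0042), and a second SOX2 probe set gave -0.77. KLF4 was the gene that rose. ZFP36L2, an RNA-binding protein that promotes mRNA decay, fell by 0.78. HEY1, a Notch target, fell by 0.74, ID2, an inhibitor of basic helix-loop-helix factors, by 0.70, and HOXB2 by 0.68. SOX12 (-0.64, limma adjusted p = 0.12) and HOXC10 (-0.65, adjusted p = 0.057) were past 1.5 fold but were not called.

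Outside those lists the genes past 2.0 fold lower were spread over signalling. AMIGO2, an adhesion molecule of neurons and epithelium, read 9.30, 8.58, 9.12 and 7.39 and fell by 1.72, the largest fall of all genes compared. It also differed by -0.71 without inducer. DUSP6, the phosphatase that switches off ERK1/2, read 8.97, 8.84, 9.32 and 7.93, a fall of 1.39 (SE 0.104, limma adjusted p = 0.00046). Its vehicle array with inducer was the highest of the 4, so the gap to the nearest other array was -0.91. PLK2, a polo-like kinase of the immediate early class, read 10.79, 10.69, 11.04 and 9.84. PIK3R3, a regulatory subunit of PI3-kinase, read 11.64, 11.60, 11.73 and 10.65. VAV3, a guanine nucleotide exchange factor, read 11.72, 11.58, 11.70 and 10.62. BAMBI, a decoy receptor that blunts TGF-beta signals, read 11.96, 11.82, 12.02 and 10.97. The array with R5020 and AP21967 was the lowest of the 4 in each. The remaining falls were those of DRD1, a dopamine receptor (-1.08), STON1, an endocytic adaptor (-1.08), POU2F3, the tuft cell factor (-1.06), and INSIG2, which retains SREBP in the endoplasmic reticulum (-1.04).

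The JAK-STAT and the TNF receptor lists held IL20RA and TRAF5, the genes with the largest increases. All lists were chosen with earlier results of these data known, so that they hold these genes is not a result. In the JAK-STAT and cytokine receptor list (37 compared) 4 genes were past 1.5 fold higher and 1 lower, limma called 6 higher and 1 lower, and the median was 0.13. Over all genes 1.59% and 1.02% were past 1.5 fold, and limma called 3.23% and 3.3%. PIM2, a survival kinase induced by STAT5, rose by 1.36 with 8.87, 8.92, 8.78 and 10.13 on the 4 arrays. JAK2 read 7.45, 7.45, 7.12 and 8.04, a rise of 0.92 (SE 0.0739, limma adjusted p = 0.00066). Its vehicle array with inducer was the lowest of the 4. IL1R1, the interleukin-1 receptor, fell by 0.76. In the TNF receptor and NF-kB list (36 compared), 5 genes were past 1.5 fold higher and 2 lower, and limma called 6 and 5. TNFRSF10B, a death receptor for TRAIL, rose by 1.18, and FAS by 0.60. NFKBIA and TNFAIP3, which restrain NF-kB, rose by 0.75 and 0.56, while NFKB2 fell by 0.82 (limma adjusted p = 0.002) and RELB by 0.48. Averaged over probe sets NFKB2 gave -0.35 and was not called (adjusted p = 0.064). The median of this list was -0.003.

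Ras and insulin pathway genes moved in both directions, and the called ERBB pathway genes rose. RASGRP1, an exchange factor that loads Ras with GTP, read 5.23, 5.16, 5.21 and 7.39, a difference of 2.17. Its other 3 arrays were below the level filter of log2 6, which it passed only through arrays with R5020 and inducer, so its test is not given as support. RASSF2, a Ras-binding tumour suppressor, read 6.79, 6.99, 6.94 and 8.80. SOS1, another Ras exchange factor, rose by 0.71. Of the 34 genes of that list 3 were past 1.5 fold higher and DUSP6 was the 1 lower, beside 1.59% and 1.02% of all genes. Of 20 ERBB receptors, ligands and adaptors 3 rose and 0 fell by limma, namely the adaptor GRB10 by 1.20, the ERBB inhibitor LRIG1 by 0.72 and the ligand EGF by 0.64. ERBB2 differed by -0.47 (limma adjusted p = 0.058). Of 31 insulin and IGF signalling genes limma called 5 higher and 4 lower, beside 3.23% and 3.3% of all genes. FOXO1 rose by 0.78 (limma adjusted p = 0.031) and IRS1, the insulin receptor substrate, fell by 0.78 (adjusted p = 0.011).

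Developmental signalling components rose and fell in nearly equal number. Of 40 TGF-beta, BMP, Wnt and Notch genes 4 were past 1.5 fold higher and 5 lower, and limma called 5 and 7. Over all genes the shares were 1.59% and 1.02%, and 3.23% and 3.3% by limma. In the Notch pathway the receptors diverged, as NOTCH2 read 10.68, 10.55, 10.76 and 11.68 while NOTCH3 read 10.13, 9.96, 10.04 and 9.06. NOTCH2 rose by 0.92 (limma adjusted p = 0.0015) and NOTCH3 fell by 0.98 (adjusted p = 0.014), but by the mean of its probe sets NOTCH3 gave -0.45 and was not called (adjusted p = 0.076). The ligand JAG1 rose by 1.11, but its signals of 6.67, 6.16, 6.49 and 7.60 show a fall of 0.50 without inducer. In the Wnt pathway LEF1 rose by 1.36 and the receptor FZD1 by 1.18, while TCF7L2 fell by 0.80 and FZD2 by 0.63. The increase of LEF1 was not seen with its second probe set (0.01). Of 47 secreted paracrine mediators 3 were past 1.5 fold higher and 2 lower. FGF18, a growth factor, read 7.21, 7.16, 7.20 and 8.58, with 1.40 from a second probe set beside 1.38. Both are sets open to cross-hybridisation (_x_at or _s_at), and the FGF18 set without that mark gave 0.18 (limma adjusted p = 0.45). PDGFA rose by 0.68, and the ephrin EFNB2 fell by 0.84. Known paracrine mediators of progestins in the mammary gland gave small values, 0.21 for TNFSF11 (RANKL) and 0.20 for WNT4 (limma adjusted p = 0.38 and 0.54), and both genes were dim.

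Of the cell cycle genes, 1 was past 2.0 fold. CCND1, cyclin D1, read 8.29, 8.24, 8.35 and 9.40 and rose by 1.05 (SE 0.094, limma adjusted p = 0.0011), with 0.94 from a second probe set. CCNE1 rose by 0.43 (limma adjusted p = 0.03), and CDKN1B, the inhibitor p27, fell by 0.52 (adjusted p = 0.042, but 0.055 after cyclic loess). CCNG2, a cyclin of resting cells, fell by 0.61. Of 30 genes of the G1 list 1 was past 1.5 fold higher and 1 lower, and limma called 3 and 2. Over all genes 1.59% and 1.02% passed 1.5 fold, and limma called 3.23% and 3.3%. Of 42 DNA replication genes limma called 4 higher and 0 lower, among them GINS2 (0.60), CDC6 (0.52) and MCM10 (0.51). Of 45 mitosis genes it called 0 higher and 2 lower, CDC25B (-0.61) and NEK2 (-0.44). Their median of -0.11 became -0.04 after cyclic loess. PMAIP1, the pro-apoptotic protein NOXA, was the BCL2 family member past 1.5 fold, with 7.33, 7.57, 7.26 and 8.96 on the 4 arrays.

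Metabolic and transport genes moved in both directions. KCNG1, a modifier subunit of potassium channels, read 8.26, 8.42, 8.38 and 10.49, but a second probe set gave 0.40 where the first gave 2.11. CA12, a carbonic anhydrase at the cell surface, rose by 1.03, KCNMA1 by 0.76 and the sodium pump subunit ATP1B1 by 0.75. Of 33 ion, water and carbonate transport genes 5 were past 1.5 fold higher and 1 lower, the calcium pump ATP2B4 (-0.71), and limma called 7 higher and 4 lower, with a median of -0.08. For this and the next lists, 1.59% and 1.02% of all genes were past 1.5 fold, and limma called 3.23% and 3.3%. G6PC1, the last enzyme of gluconeogenesis, read 4.32, 4.32, 4.29 and 6.27, so that only the R5020 array with inducer passed the level filter of log2 6. NDRG1, a stress-induced protein, rose by 1.27 and PFKFB3, an activator of glycolysis, by 1.26. With DDIT4, P4HA2 (0.77) and HIF1A (0.63) they made 5 of 40 hypoxia and glycolysis genes past 1.5 fold higher, with BHLHE41 (-0.65) lower and a median of -0.02, and limma called 6 higher and 2 lower. In the zinc transport list SLC39A14 rose by 1.28. AMD1, an enzyme of polyamine synthesis, rose by 1.39 with 9.47, 9.50, 9.57 and 10.95. CHAC1 (0.69), VLDLR (0.68), SLC7A5 (0.59) and SLC1A1 (0.59) were the 4 of 33 amino acid transport and ATF4 genes past 1.5 fold. limma called 5 genes of that list higher and 3 lower, with a median of 0.02. Of 34 steroid and xenobiotic metabolism genes it called 2 higher and 3 lower. CYP1A1, a target of the aryl hydrocarbon receptor, fell by 0.88 (limma adjusted p = 0.00093), and the receptor AHR by 0.48. The steroid-converting enzyme AKR1C3 rose by 0.88, to 6.09, just past the level filter of log2 6, so its limma call is not given as support. ELOVL5, a fatty acid elongase, rose by 0.73.

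Of 41 adhesion and junction genes 2 were past 1.5 fold higher and 2 lower, AMIGO2 among them, and limma called 2 higher and 5 lower, with 13 of 41 differences above 0. Over all genes limma called 3.23% higher and 3.3% lower. Of 34 coagulation and extracellular proteolysis genes it called 3 higher and 1 lower. MTSS1, which bends membranes at the actin cortex, rose by 1.75, with 0.33 from a second probe set. MTCL1, a microtubule crosslinker, rose by 1.71, and CYRIA, which binds the GTPase RAC1, by 1.70. CLDN8, a tight junction claudin, rose by 1.19 (limma adjusted p = 0.0075) after a difference of 0.35 without inducer. TJP3, a tight junction scaffold, fell by 0.66. Beside F3 the protease inhibitor SERPINE2 rose by 0.83 and the plasminogen activator PLAU fell by 0.52. Of the G protein list, GNAI1 (-0.67) and RGS3 (-0.61) fell. Of the immediate early and AP-1 list JUNB fell by 0.71 and IER2 by 0.57. S100P, a calcium-binding protein, rose by 0.60.

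Some lists held few or no called genes. Over all genes 1.59% were past 1.5 fold higher and 1.02% lower, and limma called 3.23% higher and 3.3% lower. Counts near 0 in lists this small therefore do not set them apart from all genes. None of 41 interferon-stimulated genes passed 1.5 fold, with differences from -0.33 (IRF7) to 0.31 (IFIT5), and limma called 0 of them (without adjustment, 2 higher and 7 lower had p under 0.05). None of 13 genes of the SUMO conjugation machinery passed 1.5 fold, and limma called 0 (0 higher and 2 lower unadjusted). Their median of -0.11 became -0.03 after cyclic loess, with TRIM28 at -0.39 and TOPORS at -0.32. Ribosome biogenesis had 0 of 36 genes past 1.5 fold, yet a median of 0.14, or 0.22 after cyclic loess, and limma called 3 higher (NIP7 by 0.58, NOP16 by 0.45 and NOC3L by 0.42), or 7 after cyclic loess. KRT15 (-0.48) and CDH3 (-0.41) were the 2 of 16 basal and mesenchymal markers called by limma, CDH3 no longer after cyclic loess (-0.32). Of 16 clock genes BHLHE41 was the 1 called.

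**Figure D4:**
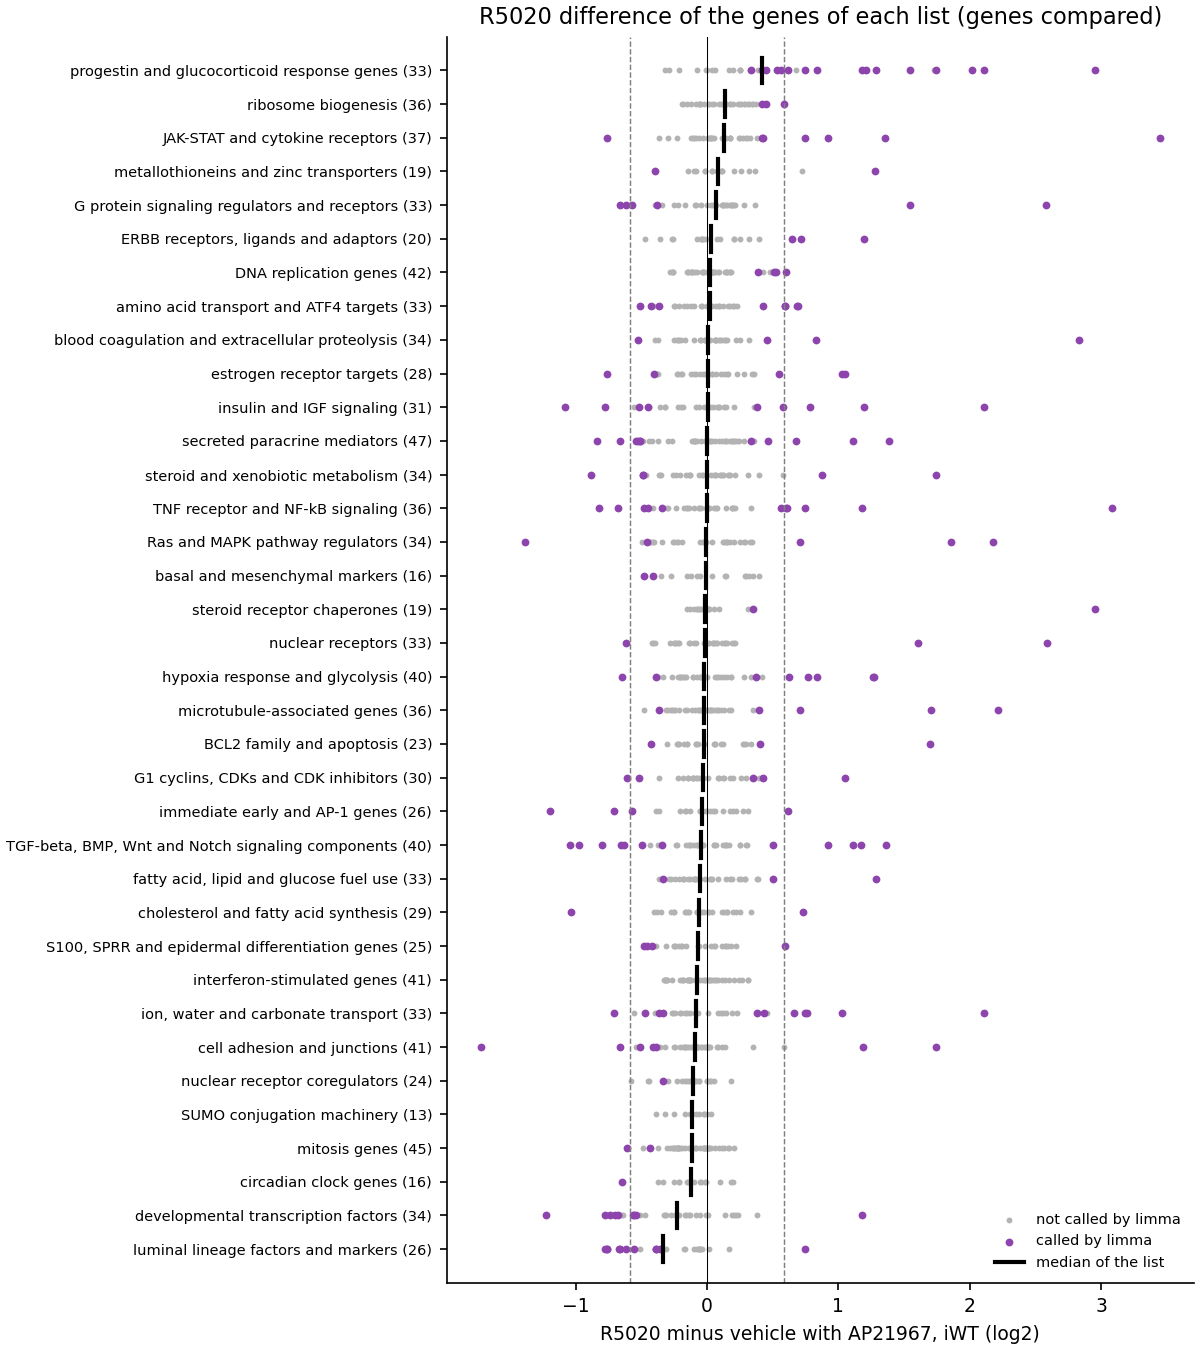
Log2 difference between R5020 and vehicle with AP21967 in iWT for the genes of 36 lists, ordered by their medians (black bars), with the number compared in parentheses. Each point is 1 gene, purple where limma called it at an adjusted p under 0.05, and dashed lines mark 1.5 fold. Progestin and glucocorticoid response genes have the highest median (0.42) and luminal lineage factors the lowest (-0.34).

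The other genes past 2.0 fold higher belonged to no single group. They were NET1 (1.52), EAF2 (1.51), ATAD2, a bromodomain ATPase (1.49), ARHGAP26 (1.42), CFAP20 (1.38), FJX1 (1.37), SCRG1 (1.35), DNAJB4, an Hsp40 co-chaperone (1.33), CBLL1 (1.27) and GPSM2, a spindle orientation protein (1.25). CORO2B (1.14), SMCO4 (1.14), RCAN1, an inhibitor of calcineurin (1.12), ATP6V0A2 (1.11), KIAA0040 (1.06) and ZNF189 (1.03) followed. Just inside the limit were CA12 (1.03), ZNF189 (1.03), INSIG2 (-1.04) and BAMBI (-1.04). Just outside lay ADARB1 and MAN1A1 (both 0.998 on the log2 scale), BICD2 (0.99), TAOK3 (-0.99) and NOTCH3 (-0.98).

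Other probe sets of the same genes gave a check on the differences. Of the 67 genes 36 had 1 probe set, and 28 had another that reached log2 6. The brightest such set gave the same sign in all 28, past 1.5 fold in 22 and past 2.0 fold in 14. Among the dimmer sets that reached log2 6, 1 of SOX2 (0.12) and 1 of JAG1 (-0.11) had the opposite sign. The median size over the 28 was 0.997 (log2) beside 1.29 for the probe set that stood for the gene. Weak second values were found for LEF1 (0.01), ATP6V0A2 (0.18), MTSS1 (0.33), KCNG1 (0.40) and ARHGAP26 (0.43). Other named calls that ended when probe sets were averaged were those of IL1R1 (-0.40), ZFP36L2 (-0.52), ATP2B4 (-0.24), RGS3 (-0.28), ELOVL5 (0.31), NOP16 (0.25), PLIN2 (0.17) and MAP1A (0.10). Without _x_at and _s_at sets limma no longer called KCNMA1 (0.14), RCAN1 (0.43) and HEY1 (-0.43). Different probe sets can read different transcript ends, which was not tested.

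Promoters of the responding genes were read for the hormone response element shared by steroid receptors. RefSeq windows of GRCh38.p14, 250 bases before to 50 after a start site, matched 41 of the 56 higher and 9 of the 11 lower genes. The core ACANNNTGT was in 1 of 41 (2.44%) and 1 of 9 windows (11.1%), beside 5.45% of 27305 windows of all genes. The half-site TGTTCT, on either strand, was in 5 (12.2%) and 1 (11.1%), beside 14.9% of all. The windows with the core belonged to NET1 and DUSP6, and 100 bases upstream of each start are shown because they are the 2 matches among the genes past 2.0 fold. The core is in capitals, and each sequence reads 5′ to 3′ along the gene. The NET1 stretch is chr10:5446342-5446441 on the plus strand with the core 164 bases before the start, and the DUSP6 stretch is chr12:89352549-89352648 on the minus strand with the core 102 bases before it.
NET1: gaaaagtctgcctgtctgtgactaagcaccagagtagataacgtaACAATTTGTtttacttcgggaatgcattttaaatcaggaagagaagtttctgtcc
DUSP6: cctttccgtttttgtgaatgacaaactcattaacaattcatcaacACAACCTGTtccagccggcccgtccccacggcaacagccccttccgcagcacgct
NET1 read 10.37, 10.36, 10.47 and 11.99 on the 4 arrays and rose, whereas DUSP6 fell. A match of these letters is a description and not a binding site.

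The iKR line, whose receptor carries a mutated SUMO acceptor lysine, gave an independent pair of arrays for the same contrast. All 67 genes had the same sign there, 44 of the 56 higher and 7 of the 11 lower also past 2.0 fold. The shares of all genes with the same sign or past 2.0 fold in iKR were not counted, so these counts have no background. The SD of the difference over genes was 0.313 (log2) in iKR, beside 0.254 in iWT. For IL20RA the difference was 3.45 in iWT and 2.89 in iKR, and for TRAF5 3.08 and 3.58. Several genes past 2.0 fold in iWT were well under it in iKR, among them ZNF652 (0.31), DUSP6 (-0.42), CCND1 (0.42) and G6PC1 (0.82), and NDRG1 was lower in iWT than in iKR (1.27 and 2.39). None of these 5 differences between lines was called by limma. It called 3 genes (0.0275%) with a higher and 11 (0.101%) with a lower response in iWT. RASGRP1 was among them, with 2.17 in iWT and 3.96 in iKR (difference -1.79). As described above it passed the level filter only through arrays with R5020 and inducer, so its test is not given as support. It is the 1 gene of the 67 in this group. With the iEV pair or the iKR pair left out of the spread, limma called 2 of these 14 genes, RASGRP1 and MSX2, and 0 with a higher response in iWT. The same limit applies to RASGRP1 there. PGR itself moved in opposite directions, by 0.55 in iWT and -0.71 in iKR.

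**Figure D5:**
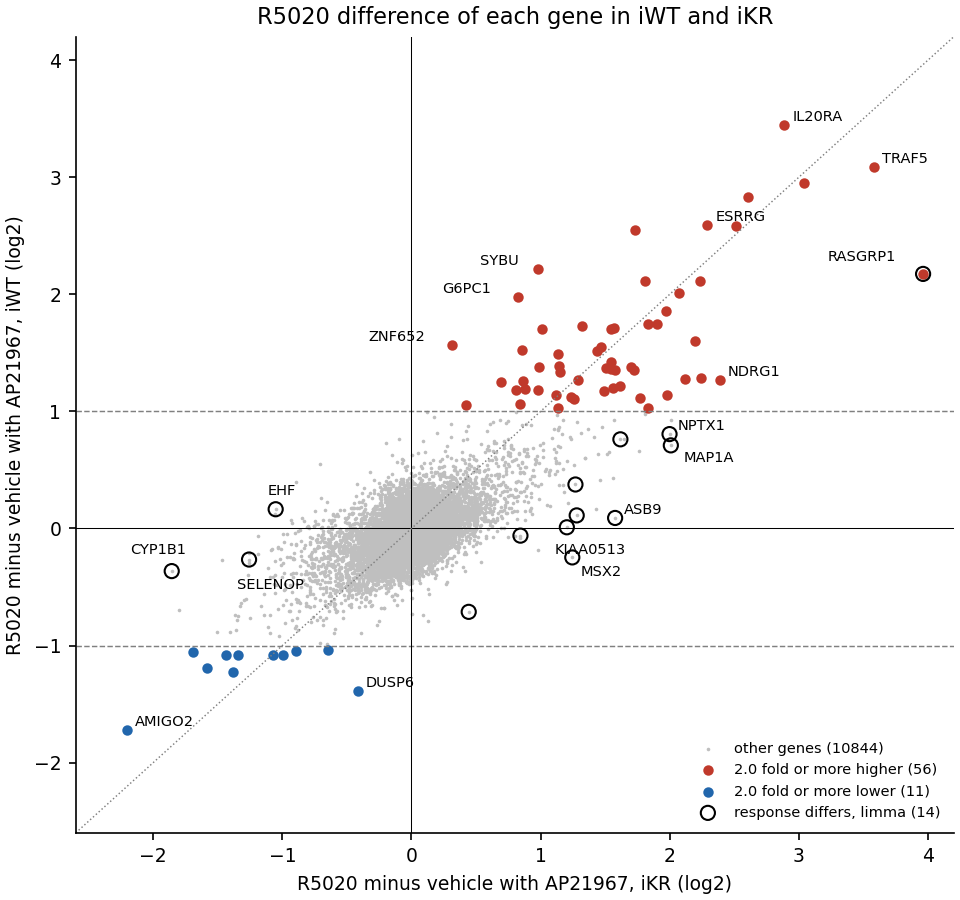
Log2 difference between R5020 and vehicle with AP21967 in iWT (vertical axis) against that in iKR (horizontal axis) for 10911 genes, 1 array per condition in each line. Colours are as for the plot with and without inducer, the dotted line marks equal responses, and open circles mark the 14 genes whose response differed by limma. The coloured genes all lie on the same side of 0 in both lines, and RASGRP1 is the coloured gene with a circle.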

How the data were processed

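Total RNA of 10 cultures, 1 per condition, was hybridised to Affymetrix human arrays. Per the labels, replicate 1 is the only one in each condition. The authors summarised probes with Robust Multi-array Average in R, so the deposited values are background-corrected, quantile-normalized log2 signals. Package versions are not given in the sources used here, and raw files were not used. The labels write the doses so that they literally read 10 nM AP21967 and 100 nM R5020, and the 1 and 10 nM quoted here are those of the study's methods. The labels name Trizol and the methods a column kit for RNA extraction.

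Of 22277 probe sets 19070 named 1 gene, 1043 several and 2164 none. The brightest probe set over the 10 arrays stood for each of 11963 genes, and 10911 reached log2 6 on some array. Differences between single arrays were counted past 2.0 fold. limma 3.58.1 (R 4.3.3) fitted the 10 arrays with 3 pairs taken as replicates (R5020 and vehicle without AP21967 in iWT and in iKR, and AP21967 and none in iEV), which left 3 residual and 7.73 total degrees of freedom. A true effect within a pair widens the SE of that gene, as in FKBP5. Whether cultures beyond these would vary likewise was not tested. Tables and figures were made with Python 3.11.15, pandas 2.3.3, numpy 2.4.6 and matplotlib 3.10.9. Arrays have no depth, and their number limits the precision.

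Named genes were PGR, the genes past 2.0 fold, in each of 36 lists those past 1.5 fold or the 2 largest, the largest differences between iWT and iKR, and defining markers. TSC22D3, DUSP1, ELF5, GATA3, TNFSF11, WNT4 and other genes named below 1.5 fold were chosen after their values were seen. The lists and the comparison were chosen with earlier results of these data known. Alternatives were a 1.5 fold limit, other level filters, averaged probe sets, no cross-hybridising (_x_at, _s_at) probe sets, median centring, cyclic loess, other reference arrays and other limma settings. No list was tested as a set.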

Additional observations from a re-analysis of the deposited data

Results flagged for a closer look

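The R5020 response with AP21967 differed between iWT and iKR by limma for 8 genes named here, each from 1 array per condition. RASGRP1, a Ras exchange factor, had the smaller response in iWT, with a difference of -1.79 on the log2 scale (2.17 in iWT and 3.96 in iKR). Because of the level filter, its test of this difference is not given as support. MSX2, a homeobox factor, differed by -1.49, with -0.25 in iWT and 1.25 in iKR. Its 4 iWT arrays read 9.13, 9.15, 9.20 and 8.96. ASB9, a substrate adaptor of ubiquitin ligases, differed by -1.49 (0.09 and 1.58). MAP1A, which stabilises microtubules, differed by -1.30, rising by 0.71 in iWT and 2.01 in iKR. KIAA0513 differed by -1.19 (0.01 and 1.20). In the other direction CYP1B1, an estrogen and xenobiotic hydroxylase, differed by 1.49 (-0.36 in iWT and -1.86 in iKR). EHF, an epithelial ETS factor, differed by 1.22 (0.16 and -1.05), and SELENOP, a selenium carrier, by 0.99 (-0.27 and -1.26). Apart from RASGRP1, whose test is not given as support because of the level filter, limma called only MAP1A for its own iWT response. The MAP1A call ended when probe sets were averaged (0.10, limma adjusted p = 0.47).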

How the results depend on the processing

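No paired analysis was possible because each condition has 1 array and the labels give every array replicate 1. The counts past 2.0 fold in iWT with AP21967 (56 higher, 11 lower) ran from 40 to 62 higher and from 4 to 13 lower over the other settings at that limit. At 1.5 fold they were 174 and 111, of which 172 and 111 were clear of the other arrays, and 10 and 2 without AP21967. The lower genes were 7 with averaged probe sets (7 also clear), 7 against the mean of the 3 other iWT arrays and 4 net of the difference without AP21967, which takes away what those genes already showed. Without AP21967 and with a mean of log2 7 or more, which removes dim genes, 1 gene was past 2.0 fold higher.

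The limma counts (352 higher, 360 lower) were 190 and 182 when _x_at and _s_at sets were dropped, where fewer genes were tested, 218 and 147 without the iEV pair, and 166 and 88 with the 4 iWT arrays only, where fewer degrees of freedom remain. A trend in eBayes gave 815 lower. The calls between iWT and iKR (3 higher, 11 lower) changed with most settings. They were 9 and 17 with a mean of log2 7 or more, 33 and 45 when probe sets were averaged, 1 and 3 without the _x_at and _s_at sets, 34 and 23 after cyclic loess, 132 and 134 with a trend, 0 and 2 without the iEV pair, and 0 and 2 without the iKR pair. The higher calls were 6 after median centring and 5 without the iWT pair. The causes of these changes were not tested. At an unadjusted p under 0.05 limma gave 678 higher and 916 lower without the iEV pair, and 670 and 1031 without the iKR pair.

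Of 152 genes named by the rule, 130 were called by limma. None reversed its direction among the called genes under the settings tried. Averaging probe sets ended 12 of the calls, dropping _x_at and _s_at sets 7 and cyclic loess 2 (BAD and CDH3), and median centring ended none. Among genes named outside the rule, cyclic loess also ended the calls of ELF5, CDKN1B, PNRC2 and CELSR2. Arrays carry no read depth, and 1 array per condition limits the precision.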

Other observations

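Estrogen receptor targets did not move as 1 group. Of 28 compared, 2 were past 2.0 fold higher, CCND1 and CA12, and MYB was past 1.5 fold lower (-0.76). limma called 3 higher, with UGCG, the glucosylceramide synthase, rising by 0.55, and 2 lower, with CELSR2, a cadherin, falling by 0.40 (limma adjusted p = 0.05, and 0.069 after cyclic loess). XBP1, a factor of the secretory pathway, differed by -0.38 (limma adjusted p = 0.05). The median was 0.01.

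Of 36 microtubule-associated genes, 3 were past 1.5 fold higher (SYBU, MTCL1 and MAP1A) and 0 lower. This list too was chosen with earlier results of these data known, so the count is not a result about the group. Of 33 genes of fatty acid, lipid and glucose fuel use, PDK4 was past 1.5 fold, and PLIN2, which coats lipid droplets, rose by 0.50 (limma adjusted p = 0.015), which was lost when its probe sets were averaged (0.17, adjusted p = 0.17). Of 19 metallothioneins and zinc transporters 2 were past 1.5 fold higher, SLC39A14 and SLC39A7. SLC39A7 read 8.98, 9.47, 8.84 and 9.57, with a difference of 0.73 with inducer and 0.49 without (limma adjusted p = 0.11).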
